A study of Mus musculus with 15 samples.

Results

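Krt7, Krt8, Krt18 and Krt19, the keratins of simple (single-layered) epithelia, and Vim, which encodes vimentin, the intermediate filament protein typical of mesenchymal cells, were followed across 5 sorted mouse cell populations. The members were chosen by name, and all 5 were listed among the 10222 gene symbols of the expression table. Krt19 was listed as 2 transcripts and each other member as 1, and levels were summed per symbol.

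RNA from 15 libraries was sequenced, 3 from each population, with the replicates taken from independent experiments. The mice were heterozygous IL-33-citrine reporter animals on the C57BL/6 strain, in which a fluorescent protein marks cells that transcribe Il33; their age and sex are not given in the sources used here. Mesenchymal stromal cells (MSC) were sorted as lineage-negative PDGFRα+CD34+Sca1+podoplanin+ cells lacking CD45, EpCAM, CD31 and CD24. From mesenteric white adipose tissue (WAT) they were taken with citrine (Il33+ WAT-MSC) and without it (Il33- WAT-MSC), and from lung with citrine only (lung Il33+ MSC). Lung epithelial cells were sorted on EpCAM and WAT endothelial cells on CD31, both without CD45. The labels name no treatment. Neither keratins nor vimentin were part of a gate. No gate was set to remove mesothelium, the epithelium-like sheet that covers the mesentery, and podoplanin, used to select MSC, is also known on mesothelial cells. Levels are RPKM, read counts divided by transcript length and by the mapped reads of the library, so that levels of different genes can be set side by side.

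Keratins form filaments only as pairs of a type I and a type II protein. Krt7 and Krt8 are type II, Krt18 and Krt19 are type I, and Krt8 with Krt18 is the basic pair of simple epithelia such as the alveolar and airway lining. Vimentin assembles with itself and is the main intermediate filament protein of fibroblasts, endothelial cells and leukocytes. Mesothelium is a tissue known to carry simple keratins and vimentin together. In bulk RNA of sorted cells, fewer keratin-bearing cells and less keratin RNA in each cell cannot be told apart.

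In the RefSeq annotation of mouse build GRCm38.p6, Krt8 lies at chromosome 15, 101996711 to 102004342 on the minus strand, and Krt18 at chromosome 15, 102028216 to 102032026 on the plus strand. The pair is divided by 23873 bases and transcribed in opposite directions, with 2 RefSeq genes for non-coding RNAs wholly between them. Krt7 lies at chromosome 15, 101412403 to 101427806 on the plus strand, among the type II keratins. Krt19 lies elsewhere, at chromosome 11, 100140810 to 100145926 on the minus strand, and Vim at chromosome 2, 13574311 to 13582826 on the plus strand. Because Krt8 and Krt18 had almost the same pattern over the libraries while Vim had the opposite one between lung populations, the promoters of these 3 are shown, each as 300 bases from 250 before to 50 from the gene start, 5′ to 3′ on the gene's own strand, from RefSeq (GRCm38.p6). Capitals mark matches on either strand to the letters TATAAA, to CACCTG (the core bound by E-box repressors such as Zeb1 and Snai1) or to CCAAT. The windows are chr15:102004293-102004592 for Krt8, chr15:102027966-102028265 for Krt18 and chr2:13574061-13574360 for Vim.
Krt8: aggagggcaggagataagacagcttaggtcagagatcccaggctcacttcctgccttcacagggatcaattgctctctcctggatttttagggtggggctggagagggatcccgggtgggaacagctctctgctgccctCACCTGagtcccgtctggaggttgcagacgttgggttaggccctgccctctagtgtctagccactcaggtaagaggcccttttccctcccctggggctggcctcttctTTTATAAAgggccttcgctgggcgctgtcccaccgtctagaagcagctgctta
Krt18: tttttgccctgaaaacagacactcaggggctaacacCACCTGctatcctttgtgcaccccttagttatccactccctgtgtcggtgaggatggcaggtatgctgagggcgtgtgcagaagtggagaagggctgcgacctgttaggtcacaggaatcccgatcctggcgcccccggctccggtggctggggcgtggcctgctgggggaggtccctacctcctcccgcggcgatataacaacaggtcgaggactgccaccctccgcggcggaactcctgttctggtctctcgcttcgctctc
Vim: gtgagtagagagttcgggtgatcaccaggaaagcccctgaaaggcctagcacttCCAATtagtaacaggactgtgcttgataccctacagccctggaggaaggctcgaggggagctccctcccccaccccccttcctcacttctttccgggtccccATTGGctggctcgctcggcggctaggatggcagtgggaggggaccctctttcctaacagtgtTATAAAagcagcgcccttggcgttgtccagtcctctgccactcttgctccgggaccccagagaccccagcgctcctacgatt

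The Krt8 and Krt18 windows held 1 CACCTG each, and the Vim window held 0. These letters were present in 20.2% of all 32851 promoters of the same length. The Krt8 window held 2 overlapping TATAAA matches, 1 on each strand, and the Vim window 1, against 13.6% of all promoters with at least 1. CCAAT was found 2 times in the Vim window and in 37.4% of all promoters. The letters GGGCGG and TGANTCA, present in 35.7% and 7.81% of all promoters, had no match in these 3 windows. The Krt7 window, which is not printed, held 4 GGGCGG and 1 CACCTG. Such matches describe letters only, and no binding was measured.

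Each library had 42711843 to 60773158 alignments. Summed marker genes of endothelium, lung epithelium and stroma were each highest in the libraries of that sort. The summed level of 10 endothelial genes was 595 to 675 RPKM in the endothelial libraries and 13.5 to 93.4 RPKM elsewhere, and that of 10 lung epithelial genes was 162796 to 210645 RPKM in the epithelial libraries, nearly all of it Scgb1a1, and 57.1 to 555 RPKM elsewhere. The 10 stromal genes summed to 7098 to 12745 RPKM in the MSC libraries, 218 to 370 RPKM in epithelium and 2914 to 5349 RPKM in the endothelial libraries. Of 10 alveolar macrophage genes, 8 were listed, and they summed to 730 to 1405 RPKM in epithelium, 202 to 249 RPKM in lung Il33+ MSC and 6.18 to 139 RPKM in the WAT libraries. Most of the epithelial sum was Lyz2, at 658, 1059 and 1301 RPKM. By limma Lyz2 was the only 1 of the 8 that was higher in epithelium than in lung Il33+ MSC, and 0 were lower, beside 43.0% of all genes that differed. Chil3 was at 45.0 RPKM in epithelium and 44.8 RPKM in lung Il33+ MSC, and Cd68 at 12.1 and 12.4 RPKM. The larger epithelial sum thus rests on Lyz2 and is not by itself a measure of macrophage RNA. A pair of WAT libraries had the largest shares of gene symbols listed at 0. Each also had the lowest keratins of its population. In replicate 1 of the endothelial cells 11.02% of gene symbols were listed at 0, and its correlation with replicates 2 and 3 was 0.773 and 0.774, whereas replicates 2 and 3 correlated at 0.918. In replicate 1 of the Il33- WAT-MSC 7.03% of symbols were listed at 0, against 1.63% to 5.69% in the remaining libraries. Its correlation with replicates 2 and 3, 0.914 and 0.909, did not stand out. Lung epithelial replicate 1 correlated less with replicates 2 and 3 of its population, at 0.870 and 0.868. The differences of the keratins tested between WAT populations, and most counts of gene lists set beside them, are given with and without the WAT pair. Those of Vim between endothelium and WAT-MSC are given with all libraries only.

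Lung epithelial cells held the keratins at the highest level of the 5 populations, and Vim at the lowest. Krt19 was the most abundant of the 4 keratins there, at 75.5, 134 and 153 RPKM in replicates 1, 2 and 3. Krt8 stood at 59.5, 71.0 and 130 RPKM, and Krt18, its partner, at 52.6, 69.7 and 124 RPKM. Krt7 was the least abundant, at 14.6, 12.3 and 18.3 RPKM. By mean level Krt19 ranked 87, Krt8 145, Krt18 159 and Krt7 1263 among all symbols in this population. All 4 were above every other library, with no overlap between epithelium and the next population. The share of all genes with such a gap was not counted. The nearest were endothelial replicate 3 for Krt7, at 7.4 RPKM, and the same library for Krt19, at 45.4 RPKM. Vim in the same epithelial libraries was 30.2, 36.7 and 49.7 RPKM, a level of 38.9 ± 9.93 RPKM (SD, n = 3) that ranked 428.

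In lung Il33+ MSC the keratins were near the bottom of the scale. Krt7 was at 0.08, 0.20 and 0.18 RPKM, Krt8 at 0.07, 0.09 and 0.76 RPKM, and Krt18 at 0.09, 0.36 and 0.69 RPKM. Krt19 alone exceeded 1 RPKM, at 1.44, 4.23 and 5.98 RPKM. Vim was at 428, 461 and 596 RPKM, or 494.8 ± 88.8 RPKM (SD, n = 3), and ranked 47 among all symbols.

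In Il33+ WAT-MSC every keratin was present at a low level, and replicate 1 was the lowest library for each. Krt19 was at 6.99, 15.98 and 27.7 RPKM. Krt7 was at 0.92, 2.86 and 3.00 RPKM, Krt8 at 0.89, 1.35 and 4.22 RPKM, and Krt18 at 0.33, 2.31 and 4.01 RPKM. Vim was at 546, 905 and 632 RPKM in these libraries, which gave the highest mean of the 5 populations, 694 ± 187 RPKM (SD, n = 3).

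The Il33- WAT-MSC differed among themselves. In replicate 1 Krt7, Krt18 and Krt19 were listed at 0 and Krt8 at 0.02 RPKM. In replicate 2 Krt19 reached 7.86 RPKM, Krt8 2.32 RPKM, Krt18 1.95 RPKM and Krt7 0.28 RPKM. Replicate 3 lay between, with Krt19 at 1.10 RPKM, Krt8 at 0.61 RPKM, Krt18 at 0.49 RPKM and Krt7 at 0.41 RPKM. Vim showed no such swing in these libraries, at 419, 671 and 651 RPKM. At the depth of replicate 1, and with the annotated transcript length of 1958 bases, 1 read of Krt8 is worth about 0.00967 RPKM, so its 0.02 RPKM is a matter of a few reads, and an absence of keratin RNA is not shown by these values.

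WAT endothelial libraries split in the same way. Replicate 1 had Krt7 and Krt18 listed at 0 and Krt8 at 0.07 RPKM, but Krt19 at 7.61 RPKM. Replicates 2 and 3 had Krt7 at 5.26 and 7.4 RPKM, Krt8 at 4.79 and 6.77 RPKM, Krt18 at 4.95 and 5.42 RPKM, and Krt19 at 15.8 and 45.4 RPKM. Replicate 3 thus held the highest value of each keratin outside the epithelial sort. Vim was at 527, 378 and 543 RPKM and ranked 23 in this population.

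**Figure D1:**
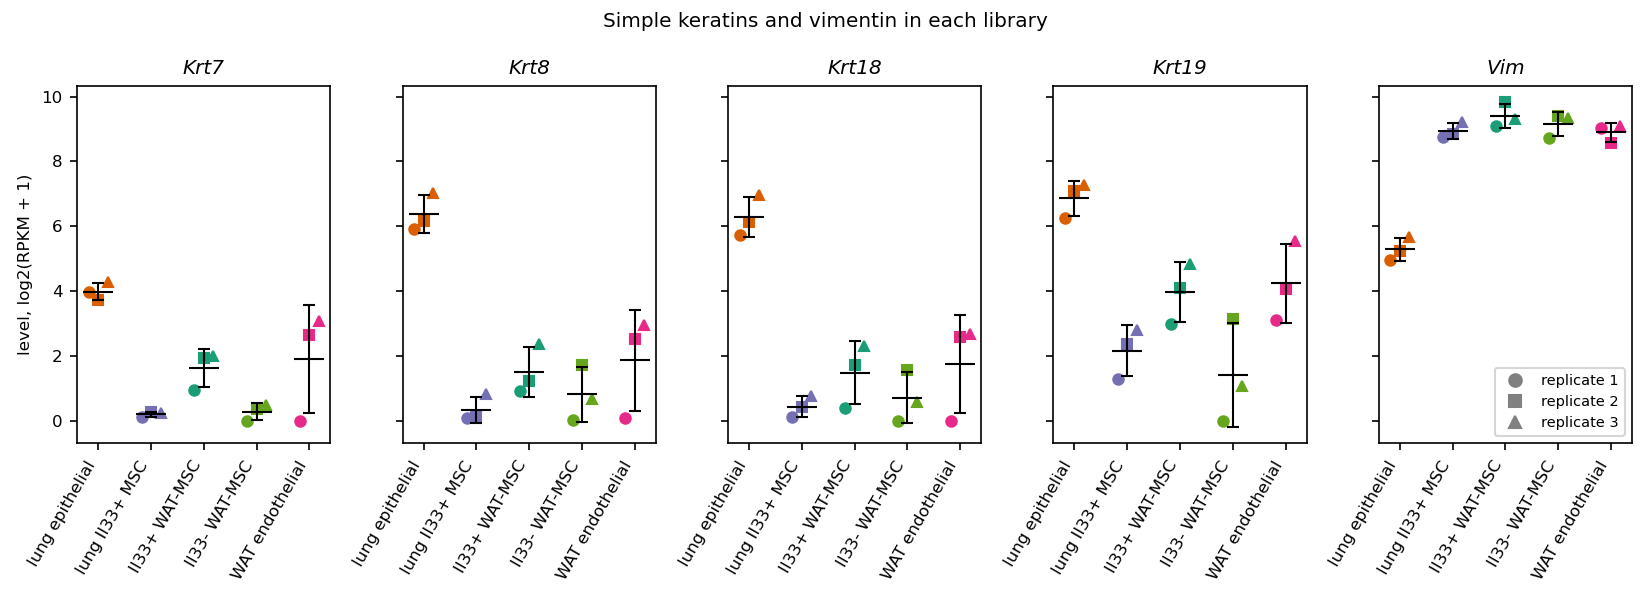
Level of each member in each of the 15 libraries, as log2(RPKM + 1) on the y axis, by population on the x axis. Circles, squares and triangles are replicates 1, 2 and 3, the long bar is the mean and the error bar the SD (n = 3). Keratins were highest in lung epithelium and spread widely in the WAT populations, whereas Vim was lowest in lung epithelium and close to even elsewhere.

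The order of mean levels was epithelium, endothelium, Il33+ WAT-MSC, Il33- WAT-MSC and lung Il33+ MSC for Krt7, Krt8 and Krt18, while for Krt19 the last 2 changed places. For all 4 keratins the endothelial and the Il33+ WAT-MSC libraries overlapped. For Krt7, the Il33+ libraries lay above the Il33- libraries of WAT with no overlap. For Krt19, they lay above the lung Il33+ MSC, their next neighbour. The other neighbours below epithelium overlapped. For Vim the order was Il33+ WAT-MSC, Il33- WAT-MSC, lung Il33+ MSC, endothelium and epithelium, and among the first 4 each population overlapped with its neighbour, whereas endothelium and epithelium did not overlap. Shares of all genes without overlap are given with the comparisons below, and none was counted for endothelium against epithelium.

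The balance of both filament systems within a library set epithelium apart. The 4 keratins summed to 669%, 783% and 856% of the Vim level in the epithelial libraries. The same sum was 0.392% to 1.28% of Vim in lung Il33+ MSC, 1.67% to 6.16% in Il33+ WAT-MSC, 0.00478% to 1.85% in Il33- WAT-MSC and 1.46% to 11.97% in endothelium. In the 8 libraries with at least 1 RPKM of Krt18, the ratio of Krt8 to Krt18 ran from 0.584 to 1.25 with a median of 1.05. At lower levels the pair could part, with Krt8 at 0.89 and Krt18 at 0.33 RPKM in Il33+ WAT-MSC replicate 1 and 0.09 against 0.36 RPKM in lung Il33+ MSC replicate 2.

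**Figure D2:**
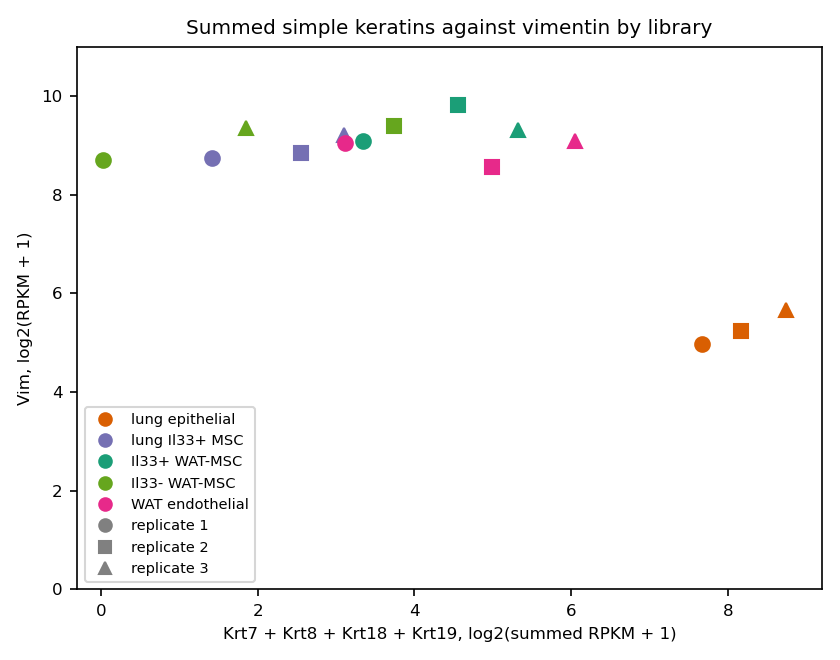
Summed level of Krt7, Krt8, Krt18 and Krt19, as log2(summed RPKM + 1), on the x axis against Vim, as log2(RPKM + 1), on the y axis, 1 point for each of the 15 libraries, coloured by population and shaped by replicate. The 3 epithelial libraries stand alone at high keratin and low Vim, and the other 12 spread along the keratin axis at a similar Vim level.

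Lung epithelium was compared with lung Il33+ MSC to ask how the members separated epithelium from stroma of the same organ. All 5 members passed the filter on low levels (at least 1 RPKM in at least 3 of the 6 libraries) and all 5 differed, the 4 keratins being higher and Vim lower in epithelium. The libraries of 5 of the 5 did not overlap, as was true of 53.4% of all genes. Over all 9352 genes tested 43.0% differed, 18.5% being higher and 24.4% lower, so a call as such was common here and the size of the change is what sets the members apart. Fold changes are differences of log2(RPKM + 1), which understate the change of genes near 0, and p was adjusted over all genes of a comparison by limma with the Benjamini-Hochberg method at a threshold of 0.05.

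Krt8 was higher by 6.03 on the log2 scale (SE 0.34, limma adjusted p = 1.63e-06), the change ranked 18 from the top among all 9352 genes. Krt18 was higher by 5.84 (SE 0.34, limma adjusted p = 1.80e-06) and ranked 22. Krt19 was higher by 4.71 (SE 0.41, limma adjusted p = 1.65e-05) and ranked 90, while Krt7 was higher by 3.78 (SE 0.26, limma adjusted p = 4.57e-06). Vim fell by 3.65 (SE 0.25, limma adjusted p = 3.66e-06) and ranked 218 from the bottom. The smaller change of Krt19 than of Krt8 went with its higher level in the stroma, not with a lower one in the epithelium.

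Within sequencing lanes the differences were close to the pooled ones. In lane 1, with 1 library on each side, they were 5.82 for Krt8, 5.62 for Krt18, 4.97 for Krt19, 3.85 for Krt7 and -3.78 for Vim. In lane 2, with 2 on each side, they were 6.13, 5.96, 4.58, 3.75 and -3.59 in the same order. Scaling the libraries by their median ratio moved the median of all genes from -0.13 to 0.15 and turned the split of calls from 1734 higher and 2285 lower to 2310 higher and 1807 lower. The members kept their directions, at 6.28 for Krt8, 6.10 for Krt18, 5.04 for Krt19, 4.01 for Krt7 and -3.30 for Vim.

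Genes of alveolar epithelium were also read in lung Il33+ MSC, and the keratins were set beside them. Sftpc, the surfactant protein of alveolar type 2 cells, stood in these libraries at 4.31% of its epithelial mean, with a range of 2.24% to 7.48%. Cldn18, an alveolar tight junction protein, was at 3.64% and Cdh1, the epithelial cadherin, at 0.747% of its epithelial mean. Krt8 was at 0.353%, Krt18 at 0.463%, Krt7 at 1.02% and Krt19 at 3.21%. On this scale the pair Krt8 and Krt18 was below Sftpc, Cldn18 and Cdh1. Epcam, at 0.351% with a range of 0 to 0.893%, was about as low as the pair, and Scgb1a1, a secretory cell product, was lower at 0.140%. Because the MSC were sorted as lacking EpCAM, a low share of Epcam goes with the gate. The Krt8 mean rests on replicate 3, since the 3 libraries were at 0.0806%, 0.104% and 0.875%. The part of such RNA in the stromal keratin values was not tested.

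**Figure D3:**
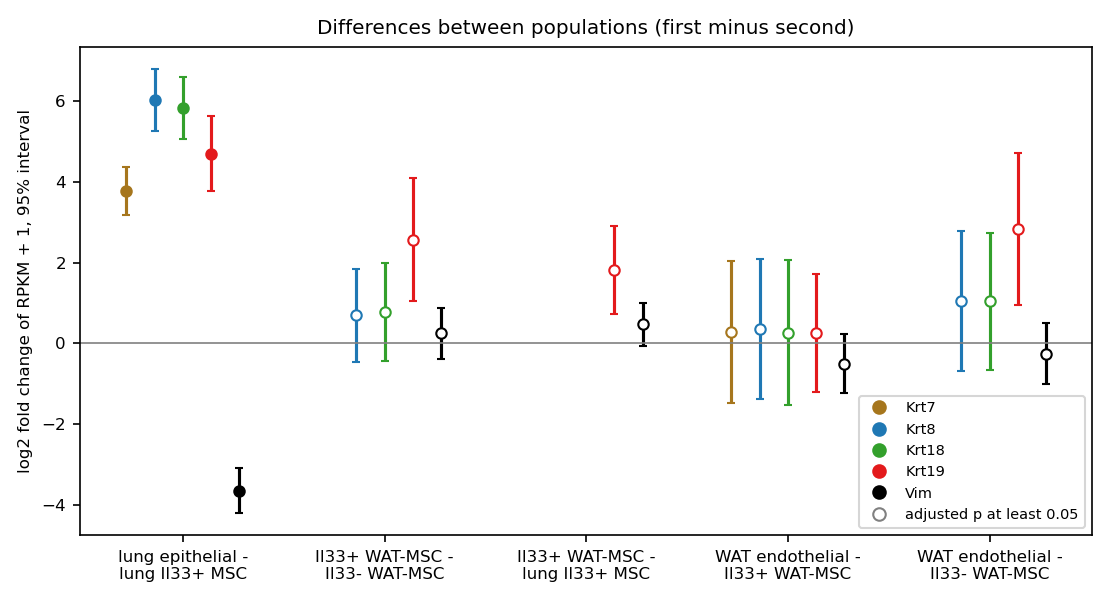
Difference in level between populations for each member, as log2 fold change of RPKM + 1 with its 95% interval (n = 3 libraries in each population), for the 5 comparisons named on the x axis. Filled points have an adjusted p under 0.05, open points do not, and members under the filter are not drawn. All 5 members differed between lung epithelium and lung Il33+ MSC, and no member passed the threshold in the other 4 comparisons.

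Other genes of the keratin system were compared in the lung as well. Of 21 further keratins looked for, 2 were listed, both highest in epithelium: Krt23 at 6.04 ± 0.65 RPKM and Krt80 at 2.08 ± 0.346 RPKM (SD, n = 3). Krt23 was higher in epithelium by 2.76 (limma adjusted p = 2.05e-05), and Krt80, at 0.75, did not pass (limma adjusted p = 0.133). Among 16 genes for desmosomes and the proteins that tie keratin to them, 11 were listed and 10 tested, of which 8 were higher and 1 lower in epithelium. Their median difference was 2.20, against -0.13 over all genes. Dsg2, a desmosomal cadherin, was higher by 3.97 (limma adjusted p = 1.26e-05), and Dsp, the desmoplakin that anchors keratin filaments, by 3.13 (limma adjusted p = 2.01e-05). Perp, a desmosomal membrane protein, was higher by 2.37 (limma adjusted p = 0.000219) and Pkp4, a plakophilin, by 2.04 (limma adjusted p = 0.000334). The gene that was lower, Dst, encodes dystonin, a large linker protein, and fell by 1.44 (limma adjusted p = 0.0017). The tenth, Ppl (periplakin), was at -0.25 (limma adjusted p = 0.549). Dsp, Dst and Ppl were named after their values were seen.

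Of 14 other intermediate filament genes 4 were listed. Nes (nestin) and Des (desmin) were at their highest in WAT endothelium, whereas Lmna, a nuclear lamin, had its highest mean in lung Il33+ MSC, at 35.3 against 29.9 RPKM in endothelium. Between the lung populations 0 of 3 tested were higher and 1 was lower in epithelium, Lmna at -1.71 (limma adjusted p = 0.0170). Of 14 regulators of the epithelial or the mesenchymal state 11 were listed and 10 tested, with 4 higher and 6 lower in epithelium. The 4 that were higher were Grhl2, Esrp1, Esrp2 and Klf5, which act in epithelia, and the 6 that were lower were Zeb1, Zeb2, Snai1, Snai2, Twist1 and Twist2, known repressors of epithelial genes. Zeb2 fell by 3.36 (limma adjusted p = 3.00e-06), Twist2 by 3.40 (limma adjusted p = 8.19e-06) and Zeb1 by 2.72 (limma adjusted p = 1.02e-05). Zeb2 and Zeb1 were high in WAT stroma too, with means of 80.3 ± 1.32 for Zeb2 and 33.1 ± 4.38 RPKM for Zeb1 (SD, n = 3) among the Il33- libraries, whose sum of this list was the highest. Il33+ and Il33- WAT-MSC differed in 0 of the 7 regulators tested, 0 of 6 linkers and 0 of 3 other filament genes by limma. Over all genes 1.57% differed, so 0 calls in lists this short say little about them. Without Il33- replicate 1 the counts were 0 of 6, 0 of 5 and 0 of 3. Jup, the linker nearest the threshold, was at -1.84 (limma adjusted p = 0.0586), and was named after its values were seen.

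On means over the 3 libraries of a WAT population, each keratin kept a larger share of its epithelial level than Epcam, Cdh1 or Scgb1a1 did. The epithelial cells were sorted on EpCAM and the MSC as lacking it, so Epcam is not an independent measure in the MSC. In Il33+ WAT-MSC Epcam was at 0.372% and Cdh1 at 0.0424% of the epithelial mean, while Krt8 was at 2.48%, Krt18 at 2.70%, Krt19 at 13.99% and Krt7 at 15.02%. In the endothelial libraries Epcam was at 0.223% and Cdh1 at 0.0522%, while Krt8 was at 4.46%, Krt18 at 4.21%, Krt19 at 19.0% and Krt7 at 28.0%. In Il33- WAT-MSC the keratins were at 1.13%, 0.99%, 2.47% and 1.53% in the same order, with Epcam at 0.0106%. Scgb1a1, the most abundant lung transcript, was at 0.0392% to 0.0517% in the 3 WAT populations. Single libraries departed from this order. In Il33- replicate 1 Krt7, Krt18 and Krt19 were at 0% and Krt8 at 0.0230%, beside 0.0307% for Scgb1a1. In endothelial replicate 1 Krt7 and Krt18 were at 0%, and Krt8 at 0.0806% was close to Epcam at 0.0638%.

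Mesothelium was looked for with 13 genes, of which 11 were listed. Their summed level was 60.9, 161 and 161 RPKM in the Il33+ stroma of WAT, 42.6, 52.1 and 42.4 RPKM in its Il33- stroma, 64.9, 257 and 252 RPKM in endothelium, 26.1 to 32.2 RPKM in lung Il33+ MSC and 8.88 to 10.3 RPKM in lung epithelium. Replicate 1 had both the lowest keratins and the lowest sum in Il33+ WAT-MSC and in endothelium, whereas the 3 sums of Il33- WAT-MSC were close. Of the 11 genes, 9, 10 and 11 reached 1 RPKM in Il33+ WAT-MSC replicates 1, 2 and 3, where 1, 4 and 4 of the 4 keratins did. In Il33- WAT-MSC 3, 8 and 7 did, beside 0, 3 and 1 keratins. In the endothelial libraries 7, 11 and 11 did, beside 1, 4 and 4 keratins.

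Upk3b, Msln and Lrrn4 were each lowest in replicate 1 of every WAT population. Upk3b, a uroplakin found on mesothelium, was at 7.13, 13.2 and 20.8 RPKM in the Il33+ stroma, at 0, 3.44 and 3.20 RPKM in the Il33- stroma, and at 17.2, 43.1 and 64.2 RPKM in endothelium. Msln, which encodes mesothelin, was at 1.01, 4.62 and 9.04 RPKM, at 0.01, 1.17 and 2.39 RPKM, and at 8.23, 10.7 and 12.1 RPKM in the same populations. Lrrn4, another mesothelial membrane protein, was at 5.06, 15.7 and 30.1 RPKM, at 0.02, 6.30 and 2.68 RPKM, and at 18.6, 55.7 and 50.1 RPKM. In Il33- WAT-MSC replicate 1, which had almost no keratin, these 3 genes were thus near 0 as well.

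Wt1 did not follow the keratins across WAT stroma. This transcription factor of mesothelium, which visceral fat stroma also expresses, was at 23.6, 13.5 and 10.7 RPKM in the Il33- stroma, highest in the library with the lowest keratins, and at 9.80, 15.1 and 10.6 RPKM in the Il33+ stroma. In endothelium Wt1 was at 0.75, 19.7 and 14.3 RPKM, lowest in the replicate with the lowest keratins. Rspo1 stayed at 17.9 RPKM in Il33- replicate 1. Without Wt1 and Rspo1 the remaining 9 genes summed to 1.15, 21.5 and 15.97 RPKM in the Il33- stroma. The sums were 28.0, 92.7 and 103 RPKM in the Il33+ stroma and 62.1, 185 and 195 RPKM in endothelium. Endothelial replicate 1 thus had the higher sum than Il33+ replicate 1 but the lower Krt7, Krt8 and Krt18, at 0 to 0.07 against 0.33 to 0.92 RPKM. This division of the list was made after the values were seen.

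Replicate 1 of the endothelial cells was mixed. Krt7, Krt8 and Krt18 were at or near 0 there, as were Upk1b at 0.17 RPKM, Bnc1 at 0.05 RPKM, Nkain4 at 0 and Wt1 at 0.75 RPKM. In the same library Krt19 was at 7.61 RPKM, Upk3b at 17.2 RPKM, Lrrn4 at 18.6 RPKM and Pkhd1l1 at 12.7 RPKM. Pkhd1l1 was lower in replicates 2 and 3, at 10.4 and 9.95 RPKM. Replicate 1 therefore held part of the keratins and part of the mesothelial genes. These genes other than Upk3b and Lrrn4 were named after their values were seen.

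**Figure D4:**
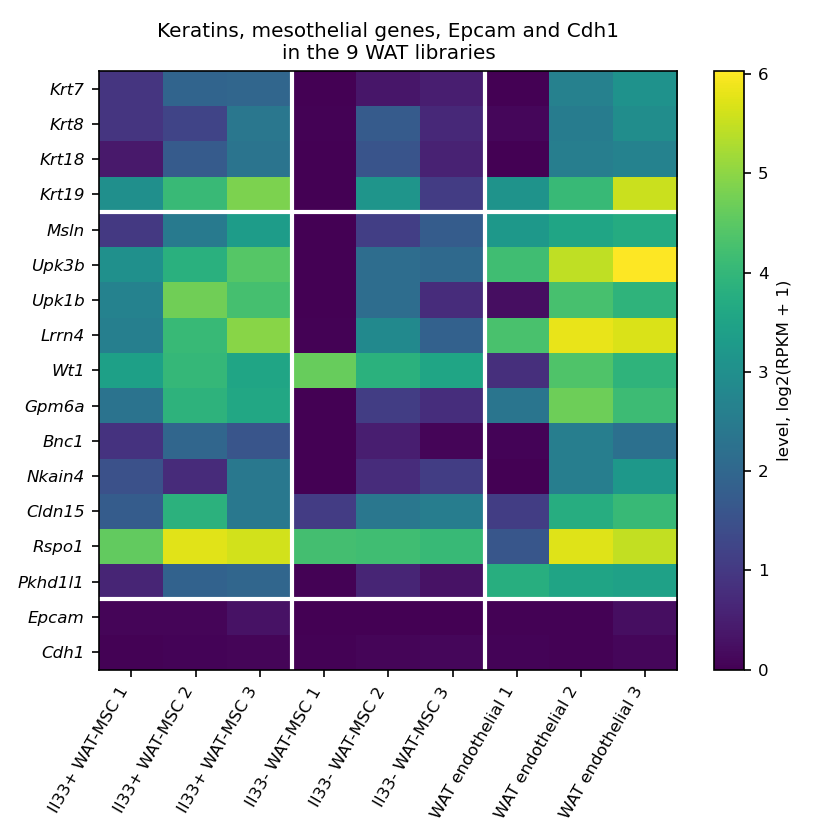
Level of the 4 keratins (upper rows), the 11 listed mesothelial genes (middle rows) and the epithelial genes Epcam and Cdh1 (lower rows) in the 9 WAT libraries (columns, by population and replicate), as log2(RPKM + 1) by colour. The keratins and most mesothelial genes were low in Il33- WAT-MSC replicate 1, Krt7, Krt8 and Krt18 were near 0 in endothelial replicate 1, and Epcam and Cdh1 stayed near 0 in all 9 libraries.

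The Il33+ and Il33- WAT-MSC were compared to see whether keratins marked either citrine gate. Of the 5 members 4 passed the filter and 0 differed by limma, beside 1 with an unadjusted p under 0.05. Over all 8448 genes 1.57% differed. Krt19 had the largest difference of the members, 2.57 (SE 0.70, 95% interval 1.04 to 4.10, limma adjusted p = 0.119), which ranked 16 from the top among all genes. Without Il33- replicate 2 it was 3.44 with a limma adjusted p of 0.0195, and without Il33- replicate 1 it was 1.87 with a limma adjusted p of 0.303, so leaving out 1 library changed the call. Krt8 differed by 0.70 (95% interval -0.45 to 1.85, limma adjusted p = 0.675) and Krt18 by 0.78 (95% interval -0.44 to 1.99, limma adjusted p = 0.659), and the libraries of both overlapped. Without Il33- replicate 1 they were 0.30 for Krt8 and 0.42 for Krt18, with limma adjusted p of 0.855 and 0.808. Vim differed by 0.26 (95% interval -0.38 to 0.89, limma adjusted p = 0.803), and by 0.04 without Il33- replicate 1 (limma adjusted p = 0.964).

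Krt7 reached 1 RPKM in 2 of these 6 libraries and was not tested, but its Il33+ libraries, at 0.92 to 3.00 RPKM, lay above its Il33- libraries, at 0 to 0.41 RPKM. Over all genes tested 17.5% had libraries that did not overlap in either direction and 8.84% in this one. Within lane 1, with 2 libraries on each side, the difference was 1.27 for Krt7, 1.97 for Krt19, 0.20 for Krt8 and 0.29 for Krt18. In lane 2, with 1 on each side, it was 1.504, 3.77, 1.70 and 1.75 in that order, while Vim was at 0.41 in lane 1 and -0.04 in lane 2. Of 9 mesothelial genes tested 2, Gpm6a at 2.64 (limma adjusted p = 0.0174) and Upk1b at 2.90 (limma adjusted p = 0.0393), were higher in Il33+ WAT-MSC and 7 did not pass, Wt1 being at -0.35. The median over the 9 was 1.31, against -0.01 over all genes. Without Il33- replicate 1 Gpm6a was at 2.33 (limma adjusted p = 0.0580) and Upk1b at 2.41 (limma adjusted p = 0.141), so that 0 of 9 passed, with a median of 1.20. Their part in the keratin values was not tested.

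The Il33+ stroma of WAT and lung were compared to ask whether the organ set the level. Of the 5 members 2 passed the filter and 0 differed by limma, beside 1 with an unadjusted p under 0.05. Over all 8554 genes 6.00% differed. Krt19 had a difference of 1.82 (SE 0.49, 95% interval 0.73 to 2.91, limma adjusted p = 0.0598), and its WAT libraries lay above its lung libraries. With lane as a covariate it was 2.25 with a limma adjusted p of 0.00568, and without Il33+ WAT-MSC replicate 1 it was 2.31 with a limma adjusted p of 0.0193. Without lung Il33+ MSC replicate 1 it was 1.38 with a limma adjusted p of 0.225, without Il33+ WAT-MSC replicate 3 it was 1.38 with 0.181, and in 1 fit of all 15 libraries the limma adjusted p was 0.287. Vim differed by 0.47 (95% interval -0.07 to 1.01, limma adjusted p = 0.360).

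Krt7, Krt8 and Krt18 reached 1 RPKM in 2 of the 6 libraries each and were not tested. Krt7 and Krt8 had WAT libraries above all lung libraries, while those of Krt18 overlapped, so that with Krt19 3 of the 5 members did not overlap. The share over all genes was 23.1%, and 12.1% with WAT higher. Within lanes Krt19 differed by 2.26 in lane 1 and 2.25 in lane 2, and Krt7 by 1.33 and 1.75. Of 9 mesothelial genes tested 7 were higher in WAT, with a median of 2.80 against 0.03 over all genes, among them Upk3b at 2.80 (limma adjusted p = 0.00263) and Lrrn4 at 3.43 (limma adjusted p = 0.0034). Msln was higher by 2.03 (limma adjusted p = 0.0438) and Wt1 by 3.40 (limma adjusted p = 0.000195). Of 5 lung epithelial genes tested 4 were lower in WAT, and of 8 alveolar macrophage genes 7 were lower.

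WAT endothelium was set against each WAT-MSC population, and both comparisons share the endothelial libraries. Against Il33+ WAT-MSC all 5 members passed the filter, 0 differed by limma and 0 had an unadjusted p under 0.05. Over all 8665 genes 3.90% differed. The 4 keratin differences lay between 0.26 and 0.35, with limma adjusted p from 0.867 to 0.907 and intervals that reached from -1.53 to 2.08, so changes of several fold in either direction lie within them. Without endothelial replicate 1 they were 1.23 for Krt7, 1.23 for Krt8, 1.14 for Krt18 and 0.83 for Krt19, with limma adjusted p from 0.191 to 0.529. Vim differed by -0.51 (95% interval -1.24 to 0.22, limma adjusted p = 0.488). Its endothelial libraries lay below the Il33+ libraries by a narrow margin, 543 against 546 RPKM at the nearest. Over all genes 23.2% did not overlap. Within lanes the keratin differences were -0.12 to 0.24 in lane 1 and 0.36 to 1.07 in lane 2.

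Against Il33- WAT-MSC 4 members passed the filter and 0 differed by limma, beside 1 with an unadjusted p under 0.05. Over all 8713 genes 5.69% differed. Krt19 differed by 2.83 (SE 0.84, 95% interval 0.94 to 4.72, limma adjusted p = 0.0982). It was 3.40 with a limma adjusted p of 0.0495 without endothelial replicate 1, 3.70 with 0.0371 without Il33- replicate 2, and 2.13 with 0.324 without Il33- replicate 1. Krt8 differed by 1.05 (limma adjusted p = 0.549) and Krt18 by 1.04 (limma adjusted p = 0.540). Without endothelial replicate 1 they were 1.93 and 1.92, with limma adjusted p of 0.0774 and 0.067, and without Il33- replicate 1 they were 0.65 and 0.68. Vim differed by -0.25 (limma adjusted p = 0.745). Krt7 reached 1 RPKM in 2 libraries and was not tested, and 0 of the 5 members had libraries that did not overlap, against 23.8% of all genes. Within lanes Krt19 differed by 2.01 in lane 1 and 4.47 in lane 2.

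Scaling by median ratio moved the median of all genes from -0.18 to -0.04 against Il33+ and from -0.17 to -0.04 against Il33- WAT-MSC. Under it Krt19 differed from Il33- WAT-MSC by 2.97 with a limma adjusted p of 0.0371, and no other member passed the threshold in either comparison. Of 11 mesothelial genes tested 1, Pkhd1l1, was higher in endothelium than in Il33+ WAT-MSC, and of 10 tested 5 were higher than in Il33- WAT-MSC, with medians of 0.39 and 2.18. Stromal genes were lower in 3 and 2 of 10, and endothelial genes higher in 8 and 9 of 10. Without endothelial replicate 1 the mesothelial count against Il33+ WAT-MSC was 1 of 11 again, but the gene was Upk3b, at 1.98 (limma adjusted p = 0.0380), and Pkhd1l1 was at 1.97 (limma adjusted p = 0.0603). Stromal genes were then lower in 0 of 10 and endothelial genes higher in 6 of the 8 still tested. Against Il33- WAT-MSC the mesothelial count was 7 of 9 without endothelial replicate 1 and 3 of 10 without Il33- replicate 1, beside 1 of 10 stromal genes lower in each case and 5 of 6 and 9 of 10 endothelial genes higher. Pkp4, the plakophilin, was higher in endothelium in both, by 3.35 (limma adjusted p = 0.000763) and 3.58 (limma adjusted p = 0.000716), and was at 28.7 to 42.1 RPKM there, above its epithelial level. Nes was higher than in Il33+ WAT-MSC by 2.63 (limma adjusted p = 0.0113), and was under the filter in that comparison without endothelial replicate 1. Zeb2 fell by 1.19 (limma adjusted p = 0.0234) and Twist2 by 2.36 (limma adjusted p = 0.0317) against Il33- WAT-MSC, but without Il33- replicate 1 neither passed, at limma adjusted p of 0.0642 and 0.123. The part of mesothelial or stromal RNA in the endothelial keratin values was not tested.

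The transcripts of Krt19 did not stay in a fixed ratio. NM_001313963 made up 86.2% to 89.5% of Krt19 in epithelium. It made up 92.1% to 98.8% in Il33+ WAT-MSC, and 99.1%, 84.4% and 76.9% in endothelial replicates 1, 2 and 3. NM_008471 was at 10.45, 15.4 and 16.01 RPKM in epithelium, and at 0.07, 2.46 and 10.5 RPKM in endothelium. In the stromal libraries it was at 0 to 0.30 RPKM, apart from 2.20 RPKM in Il33+ WAT-MSC replicate 3. How the authors' software divided reads between these overlapping transcripts is not given in the sources used here, so their shares are less certain than their sum.

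**Figure D5:**
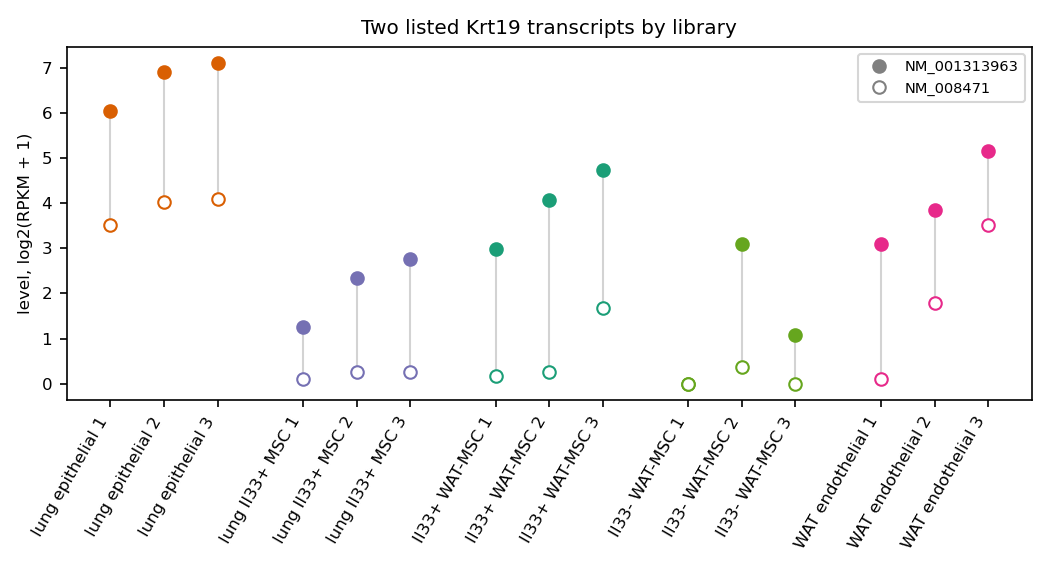
Level of the 2 listed Krt19 transcripts in each of the 15 libraries, as log2(RPKM + 1), with NM_001313963 as filled and NM_008471 as open circles, coloured by population. NM_001313963 was the higher in every library but Il33- WAT-MSC replicate 1, where both were listed at 0.

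The genes most alike to each member were ranked by Pearson's r of log2(RPKM + 1) over all 15 libraries among 8201 genes with at least 5 RPKM in at least 1 library. The points share 3 libraries to a population, so the epithelial libraries weigh heavily in every r. Krt8 and Krt18 were each other's nearest gene of all, at r = 0.995. After them Krt8 was nearest to Prrg4 at 0.983 and Cyp2s1 at 0.983, Myo5b at 0.979 and AI661453 at 0.975, while Krt18 was nearest to Emb at 0.981, Cyp2s1 and Myo5b at 0.979 and Prrg4 at 0.976. Krt7 was nearest to Gprc5a and Ezr, both at 0.964, Lpcat4 at 0.951, Lsr at 0.944 and Myo5b at 0.942. Ezr encodes ezrin, which links membrane to actin in microvilli, and was at 79.8 to 134 RPKM in epithelium, 10.1 to 16.9 RPKM in Il33+ WAT-MSC and 3.17 to 5.75 RPKM in lung Il33+ MSC.

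Krt19 was less tightly matched, with Syne1 at 0.947, Krt7 at 0.916, Nceh1 at 0.909, Krt18 at 0.906 and Krt8 at 0.904. Vim was nearest to genes of stroma and endothelium: Adamts1 at 0.988, Fstl1 and Creb5 at 0.986, and Cast and Cd34 at 0.985. Cd34, a surface protein used in the stromal gate, was at 4.66 to 6.84 RPKM in epithelium and 108 to 250 RPKM in the other 12 libraries.

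Over the 9 WAT libraries alone, among 6975 genes, Krt8 and Krt18 still correlated at 0.969. Chst4, a sulfotransferase gene, was nearest to both, at 0.969 to Krt8 and 0.982 to Krt18. Krt8 was followed by Tmem234 at 0.957, Myrf at 0.945 and Ubxn2a at 0.945, and Krt18 by Gprc5a at 0.944, Egfl6 at 0.940 and Kat6a at 0.929. Chst4 was at 0 to 0.01 RPKM in lung epithelium and at 0.67, 3.01 and 4.90 RPKM in the Il33+ stroma of WAT, 0, 1.80 and 0.41 RPKM in its Il33- stroma and 0.06, 7.33 and 11.7 RPKM in endothelium. It thus ran with the pair in WAT and was near 0 in the population where the pair was highest. Endothelial replicate 1 and Il33- WAT-MSC replicate 1, with 11.02% and 7.03% of symbols listed at 0, weigh in every r over the 9 libraries. Chst4 was at 0.06 and 0 RPKM in them, and Egfl6 at 0.08 and 0.06 RPKM. The part of these libraries in the r values, also those of Krt7 and Krt19 below, was not tested.

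In the same 9 libraries Krt7 was nearest to Gprc5a at 0.969, Lpcat4 at 0.960, Chst4 at 0.953, Psme1 at 0.951 and Chst11 at 0.948. Krt19 was nearest to Bcl3 at 0.938, Cyr61, Lrrn4 and Fgl2 at 0.925 and Fgf1 at 0.918. Lrrn4 was the only gene of the mesothelial list among these nearest genes. Vim ran apart from the keratins in WAT, with r of -0.00 for Krt7, -0.01 for Krt8, 0.09 for Krt18 and 0.22 for Krt19 over the 9 libraries. Over all 15 libraries the same r were -0.75, -0.88, -0.87 and -0.68, a relation that rests on the 3 epithelial libraries, since over the 12 others they were 0.12 to 0.33.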

How the data were processed

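RNA of flow-sorted cells was amplified (Ovation RNA-seq V2), sequenced and, per the submitters' processing notes and the study's methods, aligned to mm10 with TopHat2 and analysed in Partek. The deposited values are RPKM for 12698 RefSeq transcripts, with 2 decimals, computed by the authors. The filter behind the list and the counting rule are not given in the sources used here. RPKM divides by mapped reads, so abundant transcripts such as Scgb1a1 lower the other values of a library. Of the value columns, 0 were left without a sample.

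RPKM was summed per gene symbol. limma 3.58.1 in R 4.3.3 (lmFit, eBayes with trend) was fitted to log2(RPKM + 1) of the 6 libraries of each comparison, for genes with at least 1 RPKM in at least 3, with Benjamini-Hochberg adjustment at 0.05 over all genes tested. The fit was also run on simulated data with independent normal noise for each gene. Such data hold no library that deviates as a whole, and no result here rests on that run. Alternatives were a pseudocount of 0.1, a minimum of 5 RPKM or none, median-ratio scaling, lane or replicate terms, a fit of all 15 libraries and leaving out each library. Single Krt19 transcripts, and refits of the gene lists without Il33- WAT-MSC replicate 1 or endothelial replicate 1, were added after the data were seen. The members and gene lists were chosen with earlier results of these data known. The genes to be named were the members, their 5 nearest genes by correlation, the 3 most abundant genes of each list in the population where the list is highest, and Msln, Upk3b, Lrrn4 and Wt1. Not all of the abundant list genes are named here. Other genes of a list were named after their values were seen. The other lists held further keratins, other intermediate filaments, desmosome and linker genes, epithelial and mesenchymal regulators, and mesothelial, lung epithelial, endothelial, stromal and alveolar macrophage genes. Replicates came from independent experiments, so p-values measure the spread between these. Sequencing lanes held 8 and 7 libraries. Coordinates and promoters are from RefSeq on GRCm38.p6, the assembly of mm10; 4 of the 5 members had a promoter entry. Python 3.11.15, numpy 2.4.6, pandas 2.3.3 and matplotlib 3.10.9 were used.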

Additional observations from a re-analysis of the deposited data

How the results depend on the processing

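Between lung epithelium and lung Il33+ MSC all 5 members kept their direction and passed the limma threshold under every alternative run, over ranges of 3.74 to 5.92 for Krt7, 5.90 to 8.08 for Krt8, 5.68 to 7.55 for Krt18, 3.68 to 5.07 for Krt19 and -3.84 to -3.30 for Vim. Over the 259 member values of all comparisons and alternatives, 237 kept direction and side of the threshold, 10 passed it where the reported fit did not, all of them Krt19 in comparisons with WAT libraries, and 12 changed sign. The 12 were all of endothelium against Il33+ WAT-MSC and none was called in either fit. With a pseudocount of 0.1 they were -0.41 for Krt7, -0.040 for Krt8 and -0.20 for Krt18. With 1 library left out the ranges there were -0.31 to 1.23 for Krt7, -0.20 to 1.23 for Krt8, -0.27 to 1.14 for Krt18 and -0.39 to 0.83 for Krt19. The lows came without endothelial replicate 3, or for Krt18 without Il33+ WAT-MSC replicate 1. The cause was not tested.

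Counts of genes past the threshold depended on the settings. For Il33+ against Il33- WAT-MSC 133 became 45 with no filter, 232 with a replicate block and 49 to 121 with 1 library left out. For WAT against lung Il33+ MSC 513 became 336 in the fit of all 15 libraries and 191 to 447. For endothelium against Il33+ WAT-MSC 338 became 805 and 56 to 261, and against Il33- WAT-MSC 496 became 1030 and 140 to 414. For the lung comparison 4019 became 2835 to 3300. Counts moved by over 1.5 times in the first without Il33- replicates 2 and 3 (66 and 54) or Il33+ replicates 1, 2 and 3 (49, 76 and 65), in the second without lung Il33+ MSC replicates 1, 2 and 3 (238, 191 and 267), in the third without Il33+ replicates 1, 2 and 3 (135, 163 and 152) or endothelial replicate 2 (56), and against Il33- WAT-MSC without Il33- replicates 1, 2 and 3 (252, 246 and 238) or endothelial replicate 2 (140).

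Whether the replicate numbers pair the samples is not given in the sources used here, and the reported fits treated the libraries as unpaired. Same-numbered libraries deviated together with correlations of -0.0671 to 0.155, and in 3 of the 5 comparisons each of the 3 pairs correlated best with its own number, which is a hint from the data and not from the design. Every replicate 1 was sequenced in lane 1 and every replicate 3 in lane 2, so pairing and lane cannot be fully told apart in this hint. With the replicate block Krt19 passed in Il33+ against Il33- WAT-MSC (limma adjusted p = 0.0107), in WAT against lung Il33+ MSC (0.00556) and in endothelium against Il33- WAT-MSC (0.0278). That Krt19 was not called in these comparisons thus depends on treating the libraries as unpaired.

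At a pseudocount of 1, differences below 1 RPKM, where Krt7, Krt8 and Krt18 lay in most stromal libraries, are damped, and with 3 libraries to a population the intervals for the WAT comparisons span several fold.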
